A study of Mus musculus with 6 samples.

Results

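The MYC and MAX network was examined in SLAM-LSK cells, the CD150-positive and CD48-negative part of the lineage-negative, Sca-1 and c-Kit positive bone marrow, a fraction rich in blood stem cells. Its members were taken by symbol: the MYC paralogs Myc, Mycn and Mycl, their partner Max, the antagonists Mxd1, Mxd4, Mxi1, Mnt and Mga, and the MAX-like gene Mlx. Of the 10 genes listed, 9 were found among the 18465 rows of the expression table, and Mycl is not analysed here. The samples were 3 libraries from wild-type (WT) C57BL/6 mice and 3 from C57BL/6 mice that carry 1 copy of the Mecom R751W allele beside a normal copy, labelled MecomWT:R751W and called heterozygous here. Mecom encodes a zinc finger transcription factor of blood stem cells, and the comparison addresses what this altered allele does to expression in them. The labels state neither age nor treatment. The labels call the libraries biological replicates without tying each to a separate mouse, so p-values measure only the spread between these samples, which may be technical.

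MYC proteins bind DNA as pairs with MAX at the E-box and raise transcription of genes for ribosome production, nucleotide synthesis and growth. MXD proteins, MXI1 (also called MXD2) and MNT pair with the same MAX, bind the same sites and recruit SIN3 corepressors, so the 2 sides compete for MAX and for DNA. MGA is a large MAX partner that belongs to a Polycomb complex, PRC1.6, and MLX is a MAX-like protein that pairs with MLXIP, MLXIPL and some MXD proteins. In mouse blood stem cells Myc and Mycn are both transcribed and can partly replace each other.

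The levels of the network showed no difference between genotypes that passed the test. Myc and Mycn stood near 100 TPM (a transcript abundance corrected for gene length and library total) in both genotypes, Max, Mga and Mxd4 near 30, and the other antagonists near 13. With limma on log2(TPM + 1), 0 of 9 members passed an adjusted p of 0.05, where 0.00% of the 16655 genes tested did, and 0 of 9 had an unadjusted p under 0.05, against 5.97% of all genes (995). The groups overlapped for all 9 members, while they did not overlap for 9.19% of genes tested. Mnt, at 11.6 against 15.1 TPM, had the smallest adjusted p of the 9 (0.904). Over protein-coding rows alone, where limma called 132 of 11394 genes or 1.16%, 0 of 9 members were called, and limma-voom on implied reads also called 0 of 9 beside 50 other genes. With voom, 2 of 9 members, Mnt and Mycn, had an unadjusted p under 0.05, against 1623 of 16655 genes.

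The sequence that this network reads is the E-box CACGTG, a palindrome that is the same on both strands. It was searched in the 250 bases before each annotated gene start, in RefSeq windows of GRCm38.p6. Of the 8 members with a row and a window (Myc had none), 3 held it: Mxd4, Mnt and Mlx. The motif stood before 928 of 9262 protein-coding genes tested that had a window, or 10.02%, and before 6.86% of all 27025 genes with one. The 30 bases around the 3 sites are shown because they are the network's own recognition letters beside its own genes, with the E-box in capitals and each read 5′ to 3′ on the strand of its gene.

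Mnt: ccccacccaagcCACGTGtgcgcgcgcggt
Mxd4: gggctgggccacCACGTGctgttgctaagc
Mlx: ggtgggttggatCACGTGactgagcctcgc

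The Mnt site spans chr11:74830789-74830818 on the plus strand, its motif begins 123 bases before the start used, and it straddles the first base of the RefSeq gene. The Mxd4 site, chr5:34187912-34187941 on the minus strand, begins 219 bases before the start and lies outside the gene. The Mlx site, chr11:101087238-101087267 on the plus strand, begins 40 bases before the start used, inside the longer RefSeq span of the gene, and touches no exon of Mlx in GENCODE M21. Among MYC-induced genes, the motif stood before 8 of 31 genes of growth and metabolism (25.8%) and 1 of 24 of ribosome biogenesis (4.17%). A match is only a description of these letters; no binding was measured.

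**Figure D1:**
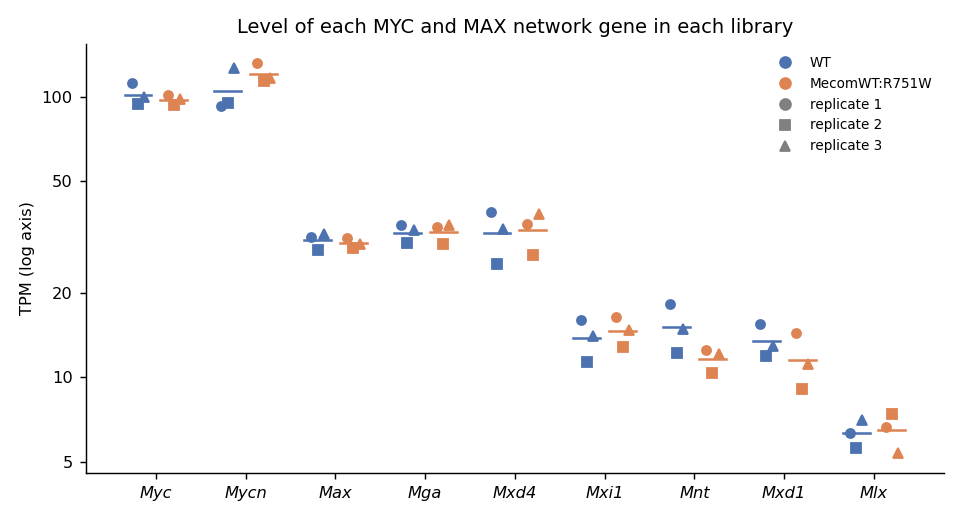
TPM of the 9 members (log axis) in each of the 6 libraries, with WT in blue, MecomWT:R751W in orange, a symbol for each replicate number and a bar at each group mean. Myc and Mycn sit between 92.9 and 131 TPM, and the points of the 2 genotypes overlap for every member.

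Myc, the founding member and itself a gene that responds fast to growth signals, stood at 112, 94.0 and 99.6 TPM in the WT libraries, given here and throughout in the order of replicate number. The heterozygous libraries had 101, 93.8 and 98.0 TPM. The values of the mutant libraries lay inside the range of the WT libraries except for replicate 2, which was the lowest of the 6 by a small margin. The group means were 102 ± 9.09 and 97.7 ± 3.77 TPM (SD, n = 3 each). The log2 fold change was -0.05 (SE 0.12, 95% interval -0.31 to 0.21, adjusted p = 1.00 by limma), an interval that runs from 0.804-fold to 1.15-fold. Myc lies on chromosome 15 from 61985341 to 61990361 and rested on 1754 to 2052 implied reads per library, whole reads worked out from the TPM values. Of the protein-coding rows, 97.0% had a lower mean.

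Mycn, the paralog best known from the developing nervous system, stood at 92.9, 94.7 and 127 TPM in the WT libraries. The heterozygous libraries had 131, 113 and 117 TPM. WT replicates 1 and 2 lay below every mutant library, while WT replicate 3 lay above 2 of the 3. The means were 105 ± 19.2 and 121 ± 9.52 TPM, a log2 fold change of 0.21 (SE 0.14, 95% interval -0.10 to 0.52, adjusted p = 0.992 by limma). The log2 fold change was 0.13 without WT replicate 1 and 0.36 without WT replicate 3. With voom on implied reads the unadjusted p was 0.0462 and the adjusted p 0.506. Mycn, on chromosome 12 from 12936093 to 12941836, had 1809 to 2832 implied reads per library. Over the 6 libraries its mean of 113 TPM was the highest of the network, above that of Myc in 5 of 6 libraries, but the ranges of the paralogs overlapped.

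Max, the partner that both sides of the network need, varied least between libraries of the same genotype. The WT libraries gave 31.6, 28.5 and 32.4 TPM, and the heterozygous ones 31.4, 29.0 and 30.0 TPM. All mutant values lay within the WT range. The means were 30.8 ± 2.07 and 30.1 ± 1.23 TPM, and the log2 fold change was -0.03 (SE 0.13, 95% interval -0.30 to 0.24). The within-group SD of log2(TPM + 1) was 0.079 for Max, 0.097 for Myc and 0.279 for Mxd4, the largest of the members. Their median was 0.194, against 0.192 over all genes tested and 0.166 over protein-coding genes of at least 5 TPM. Max lies on chromosome 12 from 76937269 to 76962323.

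**Figure D2:**
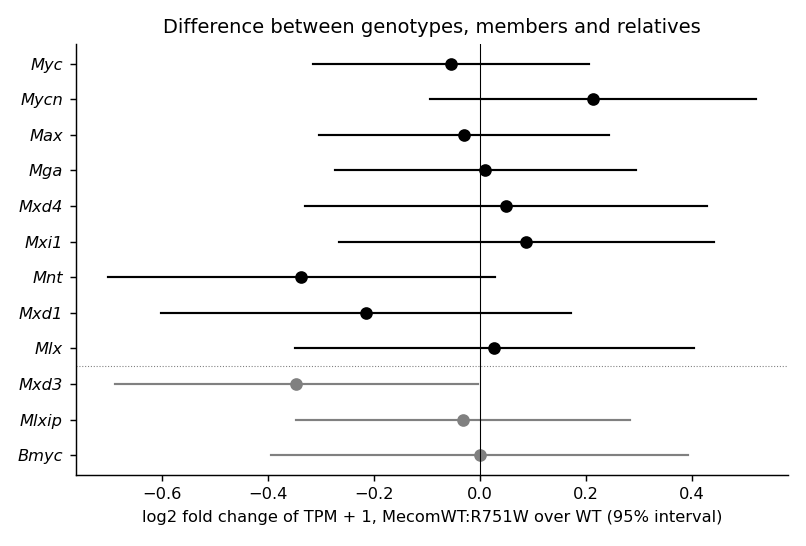
Log2 fold change of TPM + 1, MecomWT:R751W over WT, with its 95% interval from limma, for the 9 members (black) and 3 relatives (grey). The intervals of all 9 members include 0, and that of Mxd3 ends just below it, at -0.0039, before adjustment for the genes tested.

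Mnt, a broadly expressed MAX partner that opposes MYC, had the largest difference of the members. The WT libraries gave 18.3, 12.2 and 14.9 TPM, and the heterozygous ones 12.5, 10.3 and 12.1 TPM. WT replicate 2 lay below the highest mutant library, so the groups overlapped, and WT replicate 1 stood well above the other 5. The means were 15.1 ± 3.04 and 11.6 ± 1.17 TPM, a log2 fold change of -0.34 (SE 0.17, 95% interval -0.70 to 0.03), with an unadjusted p of 0.0669. It was -0.20 without WT replicate 1. With voom on 532 to 888 implied reads per library the unadjusted p was 0.00447 and the adjusted p 0.206. Mnt lies on chromosome 11 from 74830806 to 74845725.

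Mxd1, an antagonist linked to the differentiation of blood cells, gave 15.5, 11.9 and 12.9 TPM with the WT genotype and 14.3, 9.11 and 11.2 TPM with the heterozygous one. Heterozygous replicates 2 and 3 were the lowest of the 6, and replicate 1 lay between WT replicates 1 and 3. The log2 fold change was -0.22 (SE 0.18, 95% interval -0.60 to 0.17), -0.07 without heterozygous replicate 2 and -0.37 without heterozygous replicate 1. Mxd1 lies on chromosome 6 from 86647044 to 86669234.

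Mxd4, the most abundant MXD gene of these cells, gave 38.8, 25.3 and 33.9 TPM with the WT genotype and 35.3, 27.2 and 38.4 TPM with the heterozygous one. Replicate 2 was the lowest library of each genotype, and all heterozygous values lay inside the WT range. The log2 fold change was 0.05 (SE 0.18, 95% interval -0.33 to 0.43), and it turned to -0.12 without WT replicate 2. Mxi1, also an MXD-type repressor, gave 16.0, 11.3 and 14.0 TPM with the WT genotype and 16.4, 12.8 and 14.7 TPM with the heterozygous one, with replicate 2 again lowest on both sides. Its log2 fold change of 0.09 (SE 0.16, 95% interval -0.27 to 0.44) turned to -0.04 without WT replicate 2. Mxd4 lies on chromosome 5 from 34176580 to 34187710 and Mxi1 on chromosome 19 from 53310128 to 53373293. Both overlap genes annotated on the other strand in GENCODE M21, and the labels do not state whether the counting used strand.

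Mga gave 34.9, 30.0 and 33.4 TPM with the WT genotype and 34.3, 29.8 and 34.8 TPM with the heterozygous one. The 2 genotypes gave nearly the same set of values, with means of 32.8 ± 2.49 and 33.0 ± 2.76 TPM. Its log2 fold change was 0.01 (SE 0.13, 95% interval -0.27 to 0.29). With 4533 to 5583 implied reads per library, Mga was the most deeply read member, on chromosome 2 from 119872503 to 119970129. Mlx, the least abundant, gave 6.31, 5.61 and 7.01 TPM with the WT genotype and 6.67, 7.41 and 5.35 TPM with the heterozygous one. The mutant libraries held both its highest and its lowest value. Mlx rested on 115 to 154 implied reads per library, had a log2 fold change of 0.03 (SE 0.17, 95% interval -0.35 to 0.40), and lies on chromosome 11 from 101086707 to 101092207, where Psmc3ip overlaps it on the other strand.

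In order of level over the 6 libraries, the members fell into steps. Mycn and Myc came first, at 113 and 99.8 TPM, and every library had both above all other members. Mxd4, Mga and Max followed at 33.1, 32.9 and 30.5 TPM, with overlapping ranges, then Mxi1, Mnt and Mxd1 at 14.2, 13.4 and 12.5 TPM, whose ranges also overlapped. Mlx came last at 6.39 TPM. Within a step the ranges of neighbours overlapped, although Mga was above Max in 6 of 6 libraries. The ranges did not overlap from Myc to Mxd4, from Max to Mxi1 or from Mxd1 to Mlx.

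The balance of the network was read within each library as the summed TPM of Myc and Mycn over that of the antagonists Mxd1, Mxd4, Mxi1, Mnt and Mga, a ratio that the scaling between libraries cannot alter. The WT libraries had a ratio of 1.66, 2.08 and 2.08, and the heterozygous libraries had 2.06, 2.32 and 1.93. WT replicate 1 stood lowest, the mutant replicate 2 highest, and the other 4 libraries lay between 1.93 and 2.08. On the log2 scale the means were 0.95 ± 0.19 in WT and 1.07 ± 0.13 in heterozygotes (SD, n = 3 each), a difference of 0.12, smaller than the SD of the WT libraries. Without WT replicate 1 the difference was 0.02. As a score over the members it is given with no p.

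Set against Max, the sum of Myc and Mycn was 6.48, 6.63 and 6.997 times its TPM for WT and 7.41, 7.16 and 7.18 times in heterozygotes. The groups did not overlap, as they did not for 9.19% of single genes tested, in either direction. The means were 6.70 ± 0.27 and 7.25 ± 0.14. The antagonists together were 3.91, 3.19 and 3.37 times Max in WT and 3.59, 3.08 and 3.71 times in heterozygotes, with the groups overlapping. Mycn stood at 0.831, 1.01 and 1.28 times Myc in WT and at 1.30, 1.21 and 1.19 times in heterozygotes. These 4 ratios share their genes, were not tested, and are descriptions of 6 libraries.

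**Figure D3:**
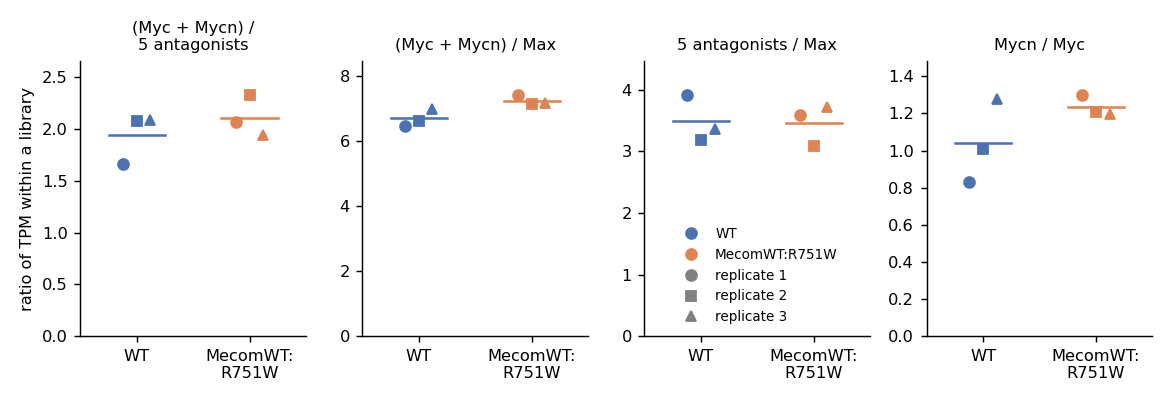
Ratios of TPM within each library (linear axes from 0): Myc plus Mycn over the 5 antagonists, the same over Max, the antagonists over Max, and Mycn over Myc, with points by replicate number and bars at group means. The first ratio ranges from 1.66 to 2.32 with the genotypes overlapping. Only the second separates the 3 WT libraries (6.48 to 6.997) from the 3 mutant ones (7.16 to 7.41), as 9.19% of single genes tested do in either direction.

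Replicate 2 was the lowest library for most members in both genotypes. In WT, 8 of 9 members were lowest in replicate 2, Mycn being the exception, and in heterozygotes 8 of 9 were lowest in replicate 2, Mlx being the exception. All 5 antagonists were among the 8 in both genotypes. Much of the table did the same: replicate 2 was the lowest library for 69.4% of protein-coding genes tested in WT and 71.7% in heterozygotes. Protein-coding rows took 25.9% and 26.0% of TPM in these 2 libraries, against 28.9% to 30.1% in the other 4; the part of this share in the members' values was not tested. Scaled to the same protein-coding total, 0 of 9 members passed, with a smallest adjusted p of 0.471 by limma, for Mnt.

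**Figure D4:**
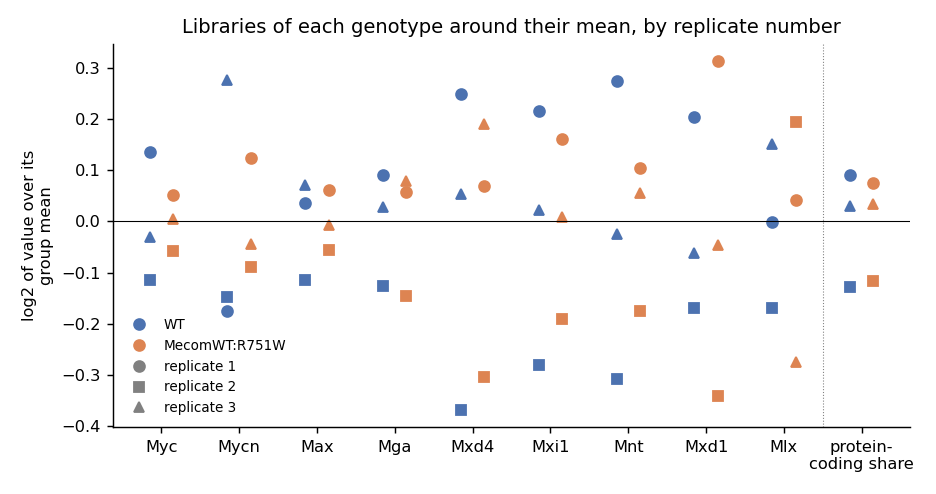
Log2 of each library's TPM over its group mean for the 9 members and, at the right, for the share of TPM in protein-coding rows. Squares, for replicate 2, lie below 0 in both genotypes for all members but Mlx in MecomWT:R751W, and the protein-coding share is also lowest there.

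Relatives outside the member list were Mxd3, Mlxip and Bmyc. Mxd3, an MXD gene tied to dividing cells, gave 8.74, 8.52 and 9.32 TPM with the WT genotype and 6.03, 6.65 and 7.65 TPM with the heterozygous one, so that every mutant library lay below every WT library, as 9.19% of genes did in either direction. Its log2 fold change was -0.35 (SE 0.16), with an unadjusted p of 0.0478 and an adjusted p of 0.825 by limma. With voom on 69 to 127 implied reads per library the unadjusted p was 0.0800 and the adjusted p 0.593. Prelid1 overlaps Mxd3 on the other strand. Mlxip, the partner of MLX also called MondoA, was at 21.2 ± 1.85 TPM for WT and 20.8 ± 2.73 TPM for heterozygotes, and Bmyc, a short MYC relative of rodents, at 12.9 ± 1.70 and 13.0 ± 3.15 TPM.

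Genes whose products work with the network were taken from lists, and over all rows 0 members of any list passed the adjusted threshold. MYC coactivators and partners had 11 of 18 log2 fold changes above 0 and a median log2 fold change of 0.01, against -0.0037 over all genes, of which 49.0% were above 0. Ccnt1, the cyclin of the elongation kinase P-TEFb, was at 29.2 ± 10.6 TPM for WT and 20.9 ± 3.66 TPM for heterozygotes, and Wdr5, which anchors MYC to chromatin, at 28.0 ± 1.37 and 32.3 ± 2.45 TPM. The log2 fold change of Ccnt1 was -0.42, and -0.15 without WT replicate 1, its highest library. Smarcb1 and Paf1 had log2 fold changes of -0.17 and -0.14. Genes of MYC protein turnover had 13 of 20 above 0 and a median of 0.04, with Cip2a, which shields MYC from a phosphatase, at 0.27, Trim32 at 0.28, the ubiquitin ligase subunit Skp2 at 0.22 and the phosphatase subunit Ppp2r5a at 0.15.

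Corepressor genes of the MXD and MNT side had 12 of 18 below 0 and a median of -0.04. Ing2, a histone-reading SIN3 subunit, was at 25.1 ± 6.28 TPM for WT and 17.3 ± 4.12 TPM for heterozygotes (log2 fold change -0.51, SE 0.19, adjusted p = 0.725 by limma, and -0.32 without WT replicate 1). Hdac1, a deacetylase of the complex, was at 11.8 ± 0.524 and 9.78 ± 0.755 TPM, while Sap30 stood at 0.13 on the log2 scale. The PRC1.6 genes that work with MGA split evenly, 5 above and 5 below 0, with Yaf2 at -0.23, Pcgf6 at 0.20, Tfdp1 at 0.14 and Cbx3 at 0.13.

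Genes that MYC is known to induce lay close to the middle of all genes. In ribosome biogenesis 16 of 30 were above 0, with a median of 0.01 and a range from -0.23 to 0.22. Npm1, the nucleolar chaperone, was at 119 ± 13.7 TPM for WT and 138 ± 9.10 TPM for heterozygotes, and Wdr12 stood at 0.20, Rrs1 at -0.23 and Wdr43 at -0.16 on the log2 scale. In growth and metabolism 24 of 36 were above 0, with a median of 0.04. Tert, the telomerase catalytic subunit, was at 4.71 ± 0.614 and 6.12 ± 1.10 TPM, Paics, of purine synthesis, at 76.0 ± 5.02 and 85.3 ± 7.88 TPM, and Slc3a2, the heavy chain of amino acid transporters, at 26.4 ± 6.28 and 21.1 ± 4.33 TPM. The log2 fold change of Slc3a2 was -0.30, and -0.13 without WT replicate 1, and that of Tfam was 0.17.

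Genes that MYC is known to repress had 7 of 11 below 0 and a median of -0.27, with 4 above 0, the highest at 0.27. The 4 named here, those of smallest unadjusted p, were all below 0. Cdkn1c, the CDK inhibitor p57, was at 11.1 ± 2.50 TPM for WT and 7.95 ± 0.953 TPM for heterozygotes (log2 fold change -0.42, SE 0.18, adjusted p = 0.797 by limma). The log2 fold change of Cdkn1c was -0.25 without WT replicate 3, its highest library, and -0.53 without WT replicate 1. Cdkn1a, the inhibitor p21, was at 4.14 ± 2.74 and 2.20 ± 1.12 TPM, Pdgfrb at 2.38 ± 0.527 and 1.51 ± 0.651 TPM, and Klf6 stood at -0.27 on the log2 scale. Without WT replicate 1, the log2 fold change of Cdkn1a went from -0.62 to -0.21 and that of Klf6 to -0.11. Of the 4 genes induced by MLX and MLXIP, Txnip, a brake on glucose uptake, was at 258 ± 63.1 and 235 ± 32.1 TPM, and Arrdc4 stood at 0.15, Arrdc2 at -0.21 and Arrdc3 at -0.03.

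**Figure D5:**
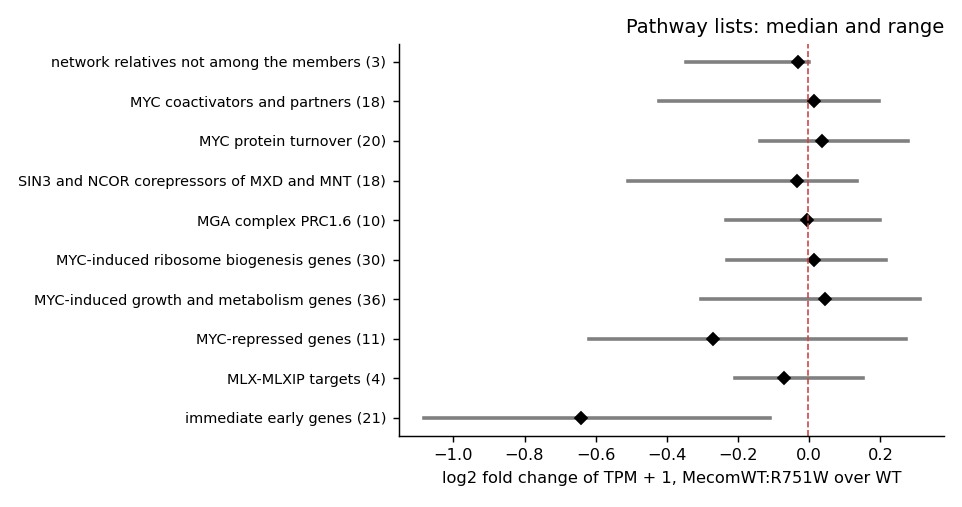
Log2 fold change of TPM + 1, MecomWT:R751W over WT, for 10 pathway lists: the diamond is the median of the tested genes (their number in brackets), the bar their range and the dashed line the median of all genes tested. The lists of MYC coactivators, MYC turnover and MYC-induced genes have medians from 0.01 to 0.04. The corepressors of MXD and MNT have -0.04, the PRC1.6 genes -0.005 and the relatives -0.03. The MLX-MLXIP targets have -0.07, the repressed genes -0.27 and the immediate early genes -0.64.

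Myc is counted among the immediate early genes, and the others of that class were set beside it. All 21 tested early genes had a log2 fold change below 0, with a median of -0.64. Over all rows 0 of 21 passed. Over protein-coding rows alone 11 of 21 were called lower, where 92 of 11394 genes were called lower and 1.16% in either direction. Dusp2 was at 54.4 ± 6.11 TPM for WT and 33.4 ± 5.66 TPM for heterozygotes, with Ppp1r15a at -0.95, Egr1 at -1.08 and Maff at -0.76 on the log2 scale. Their mean log2 level was 5.75, 5.28 and 4.89 with the WT genotype and 5.17, 4.54 and 4.38 with the heterozygous one. WT replicate 1, highest there, was the highest WT library for Myc among 6 of 9 members and for 51.7% of all genes tested. Whether the difference of Myc differs from that of these genes was not tested.

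Across the 6 libraries, the values of Myc went with those of all 5 antagonists more closely than with those of Mycn. Pearson's r of log2(TPM + 1) with Myc was 0.89 for Mnt, 0.83 for Mxd1, 0.78 for Mxi1, 0.77 for Mxd4, 0.75 for Mga and 0.71 for Max, and -0.22 for Mycn. For Mlx it was 0.02. These are descriptions over 6 points that share the libraries, and replicate 2 was the lowest library for most of these members in both genotypes. Among 8476 other protein-coding genes that averaged 5 TPM or more, those with values most like Myc were Utp14b, Bcor, Sf1, Telo2 and Wdr36, with r from 0.992 to 0.994. Those least like it were Mthfd2, Arfip2, Dynll1, Lars2 and Wdr55, with r from -0.948 to -0.896.

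The libraries were checked against markers of the sort and of other cells. All 10 stem cell markers searched were listed, among them Kit at 137 to 198 TPM, Slamf1, which encodes CD150, at 9.50 to 16.5 TPM and Ly6a, which encodes Sca-1, at 8.64 to 13.2 TPM. Mecom averaged 38.2 TPM for WT and 45.0 TPM for heterozygotes, and a gene total cannot tell the R751W transcript from the normal one, so it does not check the labels. Of the T and NK cell genes 2 of 8 had a row, Cd4 and Nkg7, which summed to 5.29 to 6.61 TPM for WT and 13.8 to 16.4 TPM for heterozygotes, and 5 of 7 erythroid genes, with Hba-a1 listed at 0 in a library, summed to 6.95 to 11.0 and 12.3 to 22.5 TPM. Sums of 4 granulocyte and monocyte genes (63.0 to 95.7 TPM, mostly Lyz2) and of 5 megakaryocyte genes (110 to 163 TPM) overlapped between genotypes, as did 3 of 4 endothelial genes (51.8 to 72.6 TPM). Over all rows limma called 0 genes. Over protein-coding rows alone, it called 40 of 11394 genes higher in heterozygotes (1.16% in either direction), among them Cd4, Nkg7, Klf1, Car1 and Emcn. As for the early genes, calls of that fit depend on how variances were shared between genes. Cd4 spanned only 1.08 to 4.29 TPM, Klf1 1.15 to 4.88 TPM and Car1 0.558 to 8.93 TPM. The part of such cells in the members' values was not tested, and in bulk RNA fewer cells of a type cannot be told apart from less RNA per cell. Implied totals were 10427533 to 12378149 reads per library.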

How the data were processed

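RNA-seq of SLAM-LSK cells was analysed from 1 table in which the authors deposited TPM values for 18465 genes and 6 libraries, each column summing to 1000000. Per the submitters' processing notes, mm10 and DESeq2 are named, with no role stated. No source used here names the aligner, counter, strand setting or annotation. Per the labels' protocols, libraries were made after rRNA depletion, poly-A selection or a low-input kit, without saying which applied here.

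Libraries were grouped by the genotype in their titles. Genes averaging 1 TPM or more entered limma 3.58.1 (R 4.3.3), which fitted log2(TPM + 1) to genotype alone and moderated variances along a trend. Two-sided p-values were adjusted over all 16655 genes (Benjamini-Hochberg, 0.05). A log2 fold change on this scale understates changes of low genes. The fit was tested on simulated data with changes larger than those of any member, so that test does not cover changes of member size. Biotypes and coordinates came from RefSeq GRCm38.p6, the same assembly as mm10, in which all 18465 symbols matched.

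Implied reads were the smallest whole numbers that fit a gene's 6 values after 1 factor per library was divided out, found for 100.0% of genes within 0.001 reads and for 97.9% exactly on simulated tables. They enter only limma-voom, an alternative added after seeing the data. Figures used Python 3.11.15 and matplotlib 3.10.9.

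The members, pathway lists and markers were chosen with earlier results of these data known. All members were named, and per list the 4 genes of smallest unadjusted p, with the 5 genes most and the 5 least like Myc; 1 of these genes is not reported here. Alternatives changed the pseudocount, filter, scaling, rows tested, variance, weights and replicate block, left out each library in turn, and changed how the balance was formed. Same-numbered libraries were not taken as pairs.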

Additional observations from a re-analysis of the deposited data

How the results depend on the processing

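The count of members past the adjusted threshold stayed 0 in all 18 other fits, and the smallest adjusted p of a member over them was 0.206, for Mnt with voom. The count over all genes, 0 with limma, was 2 with a mean of at least 5 TPM, 132 over protein-coding rows, 4 without small and ribosomal RNA rows, 1 with library weights, 50 with voom (added after seeing the data) and 0 to 13 when a library was left out, 2 without WT replicate 2, 8 without WT replicate 3 and 13 without heterozygous replicate 1. Of 162 log2 fold changes of members in these fits, 151 kept their direction, and 11 in 6 genes did not. With a library left out, Myc ranged from -0.11 to 0.014, Max from -0.085 to 0.0054, Mxd4 from -0.12 to 0.19, Mxi1 from -0.037 to 0.19, Mga from -0.050 to 0.079 and Mlx from -0.063 to 0.14. Mlxip ranged from -0.12 to 0.065, Bmyc from -0.17 to 0.14, Txnip from -0.24 to 0.076 and Arrdc3 from -0.14 to 0.11. With library weights Mlx stood at -0.086, Bmyc at 0.16 and Arrdc3 at 0.033. Bmyc, at -0.00087 as reported, stood at 0.0020 with a pseudocount of 5, 0.0010 scaled to the protein-coding total and 0.013 with voom. The cause was not tested. The median of all genes moved to -0.065 when WT replicate 2 was left out and to 0.053 when heterozygous replicate 2 was. The difference in balance ranged from 0.015 to 0.18 over its alternatives, within 1 SD (0.16) of the reported 0.12.

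Deviations from the group mean correlated at 0.14, 0.089 and 0.083 between same-numbered libraries, and at most at 0.0052 between differently numbered ones. The labels give a replicate number without naming pairs, and the libraries were not taken as pairs. With the replicate number as a block, 0 members passed. Mnt then had an unadjusted p of 0.0188 and an adjusted p of 0.431 by limma, at the same -0.34. The SD left by the fit rose for Mycn and Mlx and fell for the other members, for Mga from 0.114 to 0.0307. Mlx, at 115 to 154 implied reads per library, was the member whose precision depth limits most.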
